A study of Mus musculus with 6 samples.

Results

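Genes of glycolysis and of the hypoxia response were examined in F4/80+ cells taken from tumours that had been grown in wild type or St2-/- host mice. The F4/80 antigen marks most mouse macrophages. ST2 binds the alarmin IL-33 on the cells that respond to it. The set holds 36 genes chosen by name, of which 24 belong to glycolysis (transporters, enzymes and the kinases that regulate them) and 12 to oxygen sensing and other hypoxia targets. Of these, 33 were measured, among 19938 genes tested. Gpi1 and Eno1 had no probe set named for them in the platform table used, and Gapdh was named only together with other genes, so these 3 have no value of their own.

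The wild type group (3 samples) and the St2-/- group (3 samples) differ, per the labels, in the genotype of the mouse that carried the tumour. The labels name neither the tumour nor the strain, sex or age of the mice, and whether each sample is a different animal is not said. The p-values therefore weigh the groups against the spread of these 6 samples alone, part of which may be technical. Total RNA of each sample was hybridised to its own Affymetrix Gene 1.0 ST array. Precision is limited by there being 3 arrays per group. Values are log2 RMA expression, the authors' background-corrected and quantile-normalized scale, on which a difference of 1 is a 2-fold change. Differences are St2-/- minus wild type, with the standard error (SE) of limma's fit over all genes. A gene is called when its limma p, adjusted over all 19938 genes by the Benjamini-Hochberg method, is under 0.05.

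Glycolysis splits glucose into pyruvate in the cytosol and yields ATP without oxygen. Several steps are carried out by isoenzymes from separate genes, which differ in tissue distribution and regulation. When oxygen is low, the prolyl hydroxylases that mark the HIF alpha subunits for degradation lose activity, and HIF raises the transcription of glucose transporters, glycolytic enzymes and other targets through short response elements. In macrophages, HIF is also raised by inflammatory stimuli in the presence of oxygen, and a high rate of glycolysis is known from classically activated cells.

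The macrophage markers in the list fixed for this work had mean log2 levels of 10.8 to 10.9 over the wild type arrays and 10.7 over the St2-/- arrays, and Adgre1, the gene of F4/80, averaged 11.32 ± 0.04 and 11.63 ± 0.04 (SD, n = 3). Of these 9 markers 3 were called higher and 4 lower. Pairs of arrays correlated over all genes at 0.996 to 0.998 (Pearson) inside a group and at 0.986 to 0.988 across the groups, and no array stood apart. The gene of ST2 was not analysed here. In cells taken in bulk, a lower value can mean fewer cells of a type or less RNA per cell, and these cannot be told apart.

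Of the 21 glycolysis genes measured in this set, 11 were called higher in the St2-/- group, while its hypoxia genes outside glycolysis moved in both directions. The set was chosen with earlier results of these data known. Of 24 other glycolysis genes, described below, 1 was called higher and 1 lower, with a median of -0.06. Among the 33 measured genes 14 were called higher and 3 lower, which is 51.5%. Over all genes tested 20.8% were called, 10.7% higher and 10.0% lower, and among the genes outside the dimmest 40%, where all 33 lie, 30.4% were called. The median log2 difference was 0.17 over the 33 genes, -0.02 over all genes tested and 0.02 over those outside the dimmest 40%. The shares that follow are over all genes, dim ones included. The difference was above 0 for 22 of the 33, against 44.3% of all genes. The groups did not overlap for 24 of the 33, against 36.4% of all genes. A called log2 difference of at least 0.5 was found for 9 of them, against 6.45% of all genes, and one of at least 2-fold for 3, against 1.53%.

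Of the 21 glycolysis genes, 11 were called higher, 1 lower and 9 in neither direction (median 0.24). Of the 12 hypoxia genes outside glycolysis, 3 were called higher, 2 lower and 7 in neither direction (median -0.01). The shares called in these 2 sets were 57.1% and 41.7%, against 30.4% of all genes outside the dimmest 40%. Whether these 2 sets differ was not tested. The count of higher members in the whole set fell from 14 to 9 without St2-/- replicate 1 and to 9 without St2-/- replicate 3. Higher calls over all genes fell as well, from 2142 to 1551 and to 1466. With the arrays rescaled by cyclic loess, 10 members were higher and 6 lower, so that higher calls made up 62.5% in place of 82.4%. Of the 12 hypoxia genes outside glycolysis, 1 was higher and 3 were lower after cyclic loess. Without St2-/- replicate 1 or 3, 1 of the 12 was higher and 2 were lower. With each array centred on its median, 18 members were higher and 3 lower. Over all genes tested, higher calls were 51.7% of calls in the values as deposited, 46.8% after cyclic loess and 74.0% after that centring.

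**Figure D1:**
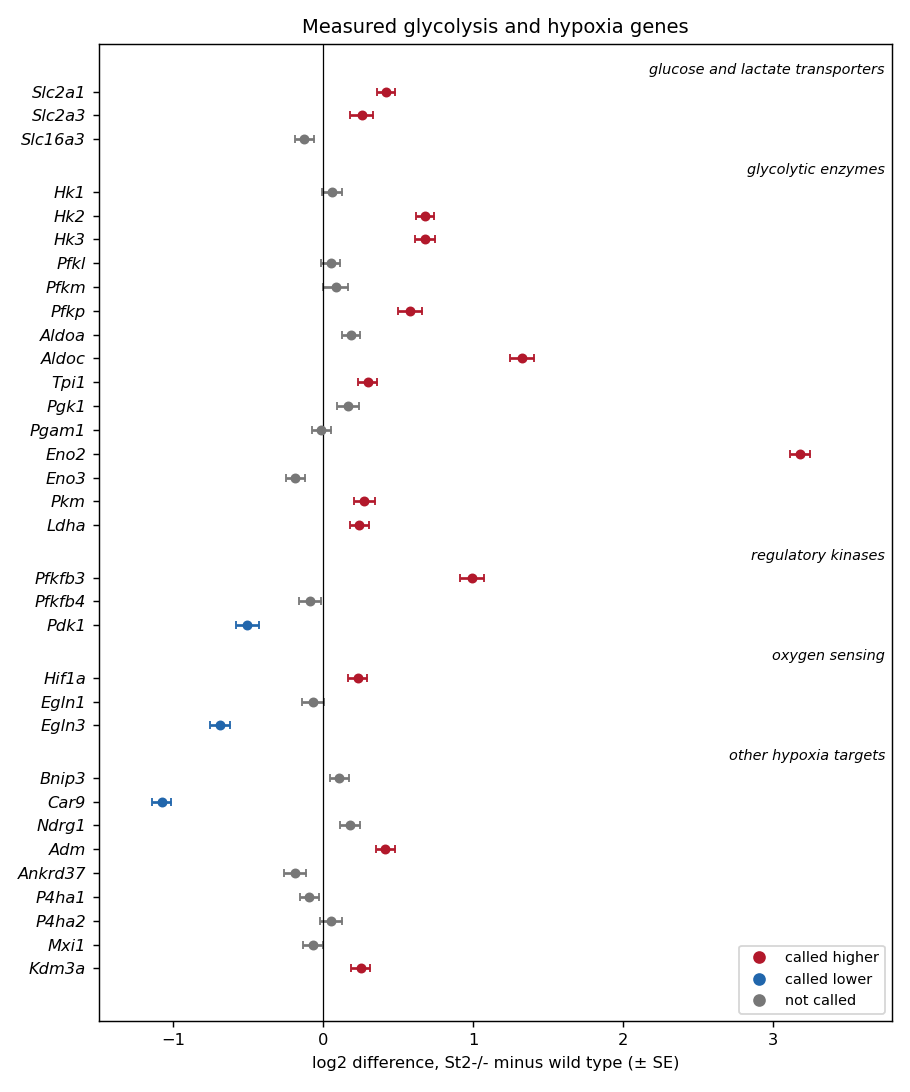
Log2 difference between the groups (x axis, St2-/- minus wild type, bars are ± SE from limma) for each of the 33 measured genes (y axis), ordered by role. Eno2 lies at 3.18 and Aldoc at 1.33, Car9 at -1.08 marks the other end, and most genes lie within 0.5 of 0.

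The genes that changed most were isoforms of enolase and aldolase. Eno2, the enolase known from neurons (probe set 10547807), read 5.28, 5.27 and 5.36 on the wild type arrays and 8.50, 8.54 and 8.42 on the St2-/- arrays. The groups lay far apart, with every St2-/- array more than 3 log2 units above every wild type array. The mean rose from 5.30 ± 0.05 to 8.49 ± 0.06 (SD, n = 3), a 9.08-fold higher level (difference 3.18 ± 0.07 SE, adjusted p = 7.04e-09). The wild type level lay below the median of all genes on those arrays (5.88 to 5.93), and the deposited values do not say whether it is above background. Aldoc, the aldolase known from brain (probe set 10379153), read 7.20, 7.27 and 7.11 in wild type and 8.59, 8.39 and 8.58 in St2-/-. It was 2.51-fold higher (difference 1.33 ± 0.08 SE, adjusted p = 2.91e-06), again without overlap. Of the 10 neuronal and neuroendocrine markers in the list fixed for this work, 0 were called higher and 3 lower, and their mean log2 level was 4.69 to 4.77 over the wild type and 4.55 to 4.58 over the St2-/- arrays.

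Aldoa and Eno3, the measured isoforms of the same steps that are known from most tissues or from muscle, did not pass the test. Eno1, the enolase known from most tissues, has no value here, so Eno2 could not be set against it. Aldoa, the aldolase of most tissues and of muscle, read 12.43, 12.42 and 12.43 in wild type and 12.64, 12.58 and 12.61 in St2-/-. These groups did not overlap either, but the difference of 0.18 ± 0.06 (SE) missed the threshold (adjusted p = 0.0559). It passed after centring on the array median (0.00935), with an intensity trend in the variance prior (0.000349), without the dimmest genes (0.0225) and in a plain two-sample test per gene (0.0107). Eno3, the enolase of muscle, read 8.06, 8.14 and 8.14 in wild type and 7.98, 7.87 and 7.93 in St2-/-, a difference of -0.19 ± 0.06 (SE, adjusted p = 0.0694). It was called lower after cyclic loess (0.0165), with an intensity trend (0.0301) and without the dimmest genes (0.0313). Of the 12 skeletal muscle markers, of which Eno3 is one, 0 were called.

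Hexokinase traps glucose in the cell as its phosphate, and of its isoforms Hk2 and Hk3 were called. Hk2, the inducible isoform that binds mitochondria, read 9.31, 9.33 and 9.29 in wild type and 10.00, 9.96 and 10.01 in St2-/-. Hk3, the isoform known from myeloid cells, read 8.63, 8.67 and 8.77 in wild type and 9.33, 9.40 and 9.38 in St2-/-. Both stood higher on every St2-/- array and rose by the same 0.68 on the log2 scale, which is 1.60-fold (SE 0.06 and 0.07, adjusted p = 3.78e-05 and 6.99e-05). Hk1, the isoform of most tissues, read 12.37, 12.28 and 12.19 in wild type and 12.34, 12.31 and 12.37 in St2-/-, and these groups overlapped (difference 0.06 ± 0.07 SE, adjusted p = 0.595).

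The value of Hk1 depends on which probe set is taken for it. The brightest probe set (10414661) is paired with Hk1 through 1 accession only, none of them a RefSeq transcript. A further 16 probe sets are paired with both Hk1 and the ribosomal protein gene Rpl17, with mean log2 levels of 11.3 to 12.7, and the brightest Hk1 probe set, at 12.3, lies in that range. The other Hk1 probe set (10369541), paired through 8 accessions of which 4 are RefSeq transcripts, had a mean level of 9.06. In this second probe set, taken after the values were seen, the difference was 0.11 ± 0.06 (SE, adjusted p = 0.249), so neither probe set of Hk1 passed the test. Which transcripts the brightest probe set reads was not tested.

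Phosphofructokinase commits sugar to glycolysis, and of its isoforms the platelet form was called. Pfkp read 9.62, 9.86 and 9.82 in wild type and 10.37, 10.27 and 10.40 in St2-/-. It was 1.49-fold higher with no overlap (difference 0.58 ± 0.08 SE, adjusted p = 0.000694). Pfkl, the liver form, read 9.15, 9.24 and 9.26 in wild type and 9.29, 9.22 and 9.29 in St2-/- (difference 0.05 ± 0.06 SE, adjusted p = 0.642). Pfkm, the muscle form, read 6.95, 6.82 and 6.71 in wild type and 6.90, 6.82 and 7.01 in St2-/- (difference 0.08 ± 0.08 SE, adjusted p = 0.531). The groups overlapped for both of these.

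The PFKFB enzymes make and break down the sugar bisphosphate that activates phosphofructokinase. Pfkfb3, the isoform with the highest ratio of kinase to phosphatase activity, read 8.55, 8.80 and 8.79 in wild type and 9.66, 9.72 and 9.73 in St2-/-. It was 1.99-fold higher, and its lowest St2-/- array stood above its highest wild type array (difference 0.99 ± 0.08 SE, adjusted p = 2.25e-05). Pfkfb4 read 7.73, 7.76 and 7.93 in wild type and 7.68, 7.74 and 7.73 in St2-/-, with overlapping groups (difference -0.09 ± 0.07 SE, adjusted p = 0.432).

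**Figure D2:**
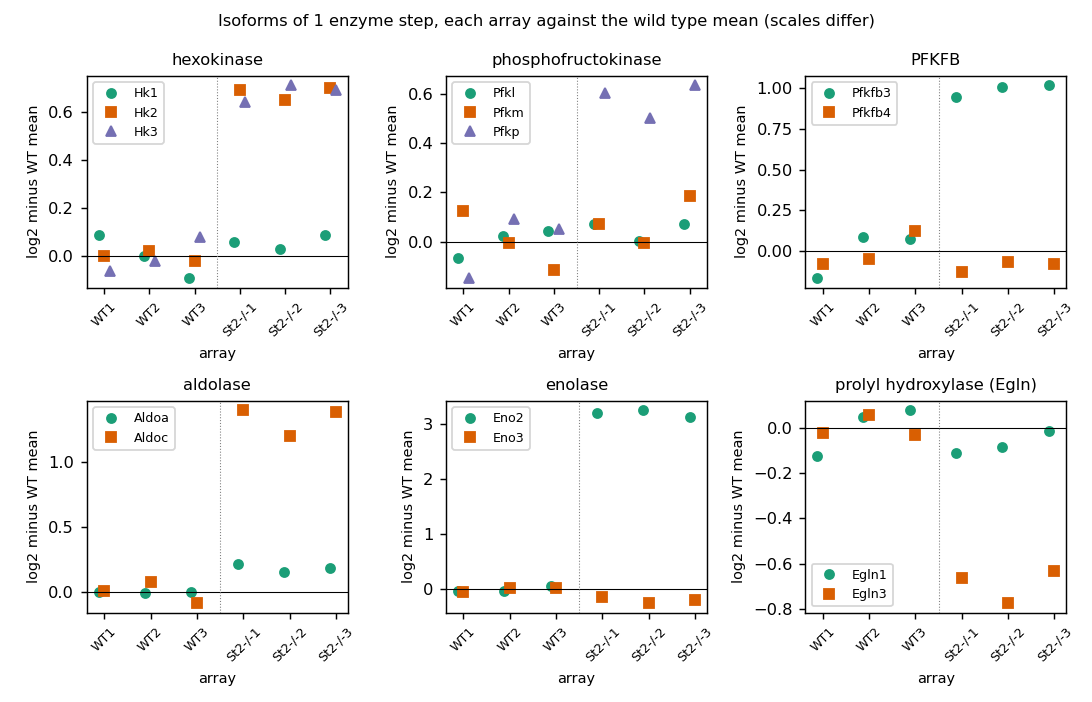
Log2 expression of isoforms of 6 enzyme families on each array (x axis, WT1 to WT3 and St2-/-1 to St2-/-3), minus the wild type mean of the same gene (y axis, whose scale differs between panels). Eno2, Aldoc, Pfkfb3, Pfkp, Hk2 and Hk3 stand above 0 on all 3 St2-/- arrays and Egln3 stands below it, while Hk1, Pfkl, Pfkm, Pfkfb4 and Egln1 stay near 0.

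Isoform pairs were compared directly by the difference of their values within each array, which does not set the level of a probe set against another. Of 14 pairs fixed for this, 12 could be formed, since Eno1 was not measured. In 8 pairs the change of the first gene differed from that of the second with an exact two-sided permutation p of 0.1, the smallest that 3 against 3 arrays allow, and 0.15 after adjustment over the 12 pairs, so none of the 12 can pass 0.05. Eno2 minus Eno3 changed by 3.37 ± 0.06 (SE), Aldoa minus Aldoc by -1.14 ± 0.07 (SE) and Pfkfb3 minus Pfkfb4 by 1.08 ± 0.07 (SE).

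Hk1 minus Hk2 and Hk1 minus Hk3 each changed by -0.62, with SE 0.05 and 0.10. Both values use the brightest Hk1 probe set, and which transcripts it reads was not tested. Pfkl minus Pfkp changed by -0.53 ± 0.05 (SE), Pfkm minus Pfkp by -0.50 ± 0.14 (SE) and Egln1 minus Egln3 by 0.62 ± 0.07 (SE). These 5 are the other pairs at the smallest p. The remaining 4 pairs had larger p-values: Slc2a1 against Slc2a3 changed by 0.16 ± 0.09 (SE, exact p = 0.2), P4ha1 against P4ha2 by -0.14 ± 0.11 (exact p = 0.4), Pfkl against Pfkm by -0.03 ± 0.11 (exact p = 0.8) and Hk2 against Hk3 by 0.00 ± 0.06 (exact p = 1).

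**Figure D3:**
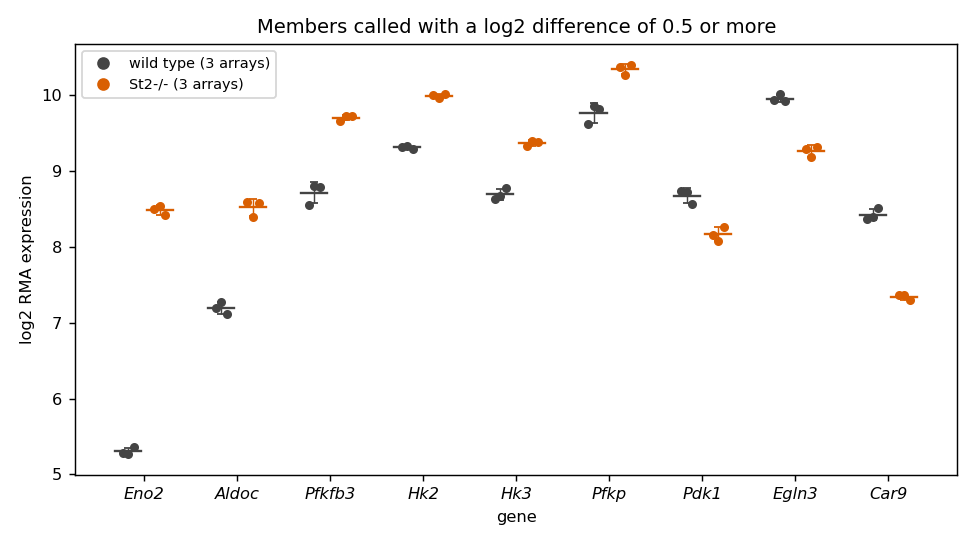
Log2 RMA expression (y axis) on each array for the 9 genes called with a log2 difference of at least 0.5 in size (x axis). Points are arrays, lines the means of 3 arrays and bars ± SD. For each of the 9 genes, which were picked by call and size, all arrays of one group lie beyond all arrays of the other. That was so for 36.4% of all genes. Levels of different genes come from different probe sets and are not comparable.

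Tpi1, Pkm and Ldha, which act after the aldolase step, were called higher by less than Eno2 and Aldoc. Tpi1, which interconverts the triose phosphates, read 11.20, 11.29 and 11.25 in wild type and 11.56, 11.48 and 11.59 in St2-/- (difference 0.30 ± 0.06 SE, adjusted p = 0.00952). Pkm, the pyruvate kinase of most tissues, read 11.77, 11.97 and 11.89 in wild type and 12.15, 12.14 and 12.16 in St2-/- (difference 0.27 ± 0.07 SE, adjusted p = 0.0208). Ldha, which turns pyruvate into lactate, read 12.30, 12.27 and 12.21 in wild type and 12.52, 12.45 and 12.53 in St2-/- (difference 0.24 ± 0.06 SE, adjusted p = 0.0236). The groups did not overlap for any of these 3 genes, nor did they for 36.4% of all genes. The changes were 1.18-fold to 1.23-fold. A second probe set of Pkm (10528480) differed by 0.15 ± 0.06 (SE) and was not called in the fit over all rows of the table (adjusted p = 0.142). The calls of Pkm and Ldha were lost when some single arrays were left out, and after cyclic loess. Leaving out 1 array also lowered the calls over all genes, from 4140 to between 2887 and 3852. Pkm had an adjusted p of 0.0651 without wild type replicate 1 and of 0.06, 0.0564 and 0.0697 without St2-/- replicates 1, 2 and 3, and 0.096 after cyclic loess. Ldha had 0.0658 without wild type replicate 3, 0.0766 and 0.0896 without St2-/- replicates 1 and 3, and 0.0985 after cyclic loess.

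Pgk1, which makes the first ATP of the pathway, read 11.22, 11.38 and 11.40 in wild type and 11.51, 11.42 and 11.57 in St2-/-. Its difference of 0.17 ± 0.07 (SE, adjusted p = 0.153) passed after centring on the array median (0.0334) and with an intensity trend (0.0244). Pgam1, the phosphoglycerate mutase, differed by -0.01 ± 0.06 (SE, adjusted p = 0.911), and its sign turned to 0.08 after centring. Both genes have 3 probe sets paired with them alone. The probe sets that name Gapdh numbered 25, all of them shared with other symbols, and none was called in the fit over all rows of the table, with differences of 0.05 to 0.17. Glycolytic genes have many near-identical copies in the mouse genome, so the separate values of Pgk1, Pgam1 and Gapdh are uncertain. Whether such copies also affect the values of called members, such as Tpi1, Pkm and Ldha, was not tested.

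Among the transporters, Slc2a1 (GLUT1), the widespread glucose carrier, read 11.63, 11.67 and 11.64 in wild type and 12.07, 12.03 and 12.09 in St2-/-. It was 1.33-fold higher with no overlap (difference 0.42 ± 0.06 SE, adjusted p = 0.000902). Slc2a3, a glucose carrier of high affinity, read 6.76, 6.53 and 6.64 in wild type and 6.98, 6.88 and 6.84 in St2-/-, and its difference of 0.26 ± 0.08 (SE) was just called (adjusted p = 0.0433). This call was lost on leaving out wild type replicate 2 (0.12), wild type replicate 3 (0.0904) or any of the St2-/- arrays (0.138, 0.0911 and 0.0706 for replicates 1, 2 and 3), in the plain two-sample test (0.128) and with all rows of the table tested (0.0919). Slc16a3, which exports lactate, read 9.64, 9.69 and 9.74 in wild type and 9.59, 9.50 and 9.60 in St2-/- (difference -0.13 ± 0.06 SE, adjusted p = 0.208). Its groups did not overlap, and it was called lower after cyclic loess (0.0355).

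Pdk1, the kinase that shuts the pyruvate dehydrogenase complex and so holds back the conversion of pyruvate to acetyl-CoA, went the other way. It read 8.74, 8.72 and 8.56 in wild type and 8.16, 8.08 and 8.26 in St2-/-. It was 1.42-fold lower with no overlap (difference -0.51 ± 0.08 SE, adjusted p = 0.00128), the only glycolysis member called lower in the values as deposited.

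In the oxygen-sensing branch, Hif1a and the prolyl hydroxylase gene Egln3 moved apart. Egln3, itself a target of HIF, read 9.93, 10.01 and 9.92 in wild type and 9.29, 9.18 and 9.32 in St2-/-. It was 1.61-fold lower with no overlap (difference -0.69 ± 0.07 SE, adjusted p = 7.31e-05). Egln1, the main oxygen sensor of most cells, read 8.84, 9.01 and 9.04 in wild type and 8.85, 8.88 and 8.95 in St2-/- (difference -0.07 ± 0.07 SE, adjusted p = 0.56), and its groups overlapped. Hif1a, the oxygen-regulated subunit of HIF, read 9.26, 9.19 and 9.13 in wild type and 9.39, 9.41 and 9.47 in St2-/-, a difference of 0.23 ± 0.06 (SE, adjusted p = 0.0331). That call did not hold on leaving out wild type replicate 2 (0.0714), wild type replicate 3 (0.0904) or any of the St2-/- arrays (0.0655, 0.0766 and 0.121 for replicates 1, 2 and 3), nor after cyclic loess (0.167).

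Among 9 HIF targets outside glycolysis, 3 passed the test (33.3%), of which 2 rose and 1 fell. That share is close to the 30.4% called among all genes outside the dimmest 40%. Car9, a carbonic anhydrase on the cell surface and a standard marker of hypoxic tumour cells, read 8.37, 8.39 and 8.51 in wild type and 7.37, 7.36 and 7.30 in St2-/-. It was 2.11-fold lower, with every St2-/- array below every wild type array (difference -1.08 ± 0.07 SE, adjusted p = 3.78e-06). Adm, the vasodilator peptide adrenomedullin, read 8.17, 8.05 and 8.09 in wild type and 8.53, 8.49 and 8.53 in St2-/-, a 1.33-fold higher level (difference 0.41 ± 0.06 SE, adjusted p = 0.00132). Both kept their groups apart. Kdm3a, a histone demethylase that uses oxygen, read 8.68, 8.71 and 8.66 in wild type and 8.96, 8.87 and 8.97 in St2-/- (difference 0.25 ± 0.06 SE, adjusted p = 0.0191). The call of Kdm3a was lost without wild type replicate 1 (0.0501), without St2-/- replicate 1 or 3 (0.0673 and 0.0785) and after cyclic loess (0.0867).

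The other 6 did not pass. Differences were 0.18 ± 0.07 (SE) for the stress-response gene Ndrg1, 0.11 ± 0.06 (SE) for the mitophagy receptor gene Bnip3 and -0.19 ± 0.07 for Ankrd37, which encodes an ankyrin repeat protein. They were -0.09 ± 0.07 and 0.05 ± 0.07 for P4ha1 and P4ha2, the catalytic subunits of collagen prolyl hydroxylase, and -0.07 ± 0.07 for Mxi1, which encodes an antagonist of MYC. P4ha1 read 9.83, 9.92 and 9.86 in wild type and 9.78, 9.71 and 9.84 in St2-/-, and P4ha2 read 6.26, 6.13 and 6.30 against 6.28, 6.35 and 6.21. Groups overlapped for these 2 genes and for Mxi1, and not for Ndrg1, Bnip3 and Ankrd37. The other probe set of Bnip3 (10568785) differed by 0.25 ± 0.08 (SE), and the mean of both by 0.18 ± 0.07 (SE, adjusted p = 0.0898). Ndrg1 and Bnip3 were called higher after centring on the array median (0.0206 and 0.047), and Ankrd37 was called lower after cyclic loess (0.0384).

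The stretch before the start of transcription is shown for 5 of the genes that changed most, to set those that rose beside those that fell. Each run holds the 250 bases before the most upstream start that RefSeq gives for the gene (mouse build GRCm38.p6), 5′ to 3′ on the strand of the gene. Capitals mark ACGTG or GCGTG, the core letters of a HIF response element, on either strand, so that a match on the opposite strand reads CACGT or CACGC.
Eno2, chr6:124769674-124769923, minus strand, higher: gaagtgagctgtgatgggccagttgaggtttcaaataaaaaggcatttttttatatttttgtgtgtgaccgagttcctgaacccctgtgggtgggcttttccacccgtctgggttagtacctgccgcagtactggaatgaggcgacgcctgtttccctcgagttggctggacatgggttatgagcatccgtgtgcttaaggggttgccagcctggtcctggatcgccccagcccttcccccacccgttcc
Aldoc, chr11:78322823-78323072, plus strand, higher: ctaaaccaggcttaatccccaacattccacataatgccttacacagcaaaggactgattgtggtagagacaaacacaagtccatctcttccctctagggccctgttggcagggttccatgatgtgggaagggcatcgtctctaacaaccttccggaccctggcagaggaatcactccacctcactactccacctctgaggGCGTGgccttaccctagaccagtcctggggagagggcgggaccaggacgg
Pfkfb3, chr2:11553930-11554179, minus strand, higher: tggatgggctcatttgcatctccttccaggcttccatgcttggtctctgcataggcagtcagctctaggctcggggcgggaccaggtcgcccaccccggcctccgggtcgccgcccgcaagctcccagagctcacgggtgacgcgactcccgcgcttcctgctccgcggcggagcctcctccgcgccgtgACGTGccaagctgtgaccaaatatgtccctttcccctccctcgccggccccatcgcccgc
Egln3, chr12:54203875-54204124, minus strand, lower: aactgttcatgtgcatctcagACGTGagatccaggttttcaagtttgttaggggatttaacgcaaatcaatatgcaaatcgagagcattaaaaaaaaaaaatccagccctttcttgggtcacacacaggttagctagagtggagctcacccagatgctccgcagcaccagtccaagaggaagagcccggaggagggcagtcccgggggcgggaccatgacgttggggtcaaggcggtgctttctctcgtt
Car9, chr4:43506776-43507025, plus strand, lower: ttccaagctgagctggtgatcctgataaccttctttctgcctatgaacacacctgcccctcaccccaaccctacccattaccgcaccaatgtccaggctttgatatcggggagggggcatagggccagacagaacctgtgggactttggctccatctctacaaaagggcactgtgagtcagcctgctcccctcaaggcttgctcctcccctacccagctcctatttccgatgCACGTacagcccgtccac

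Both the genes that rose and the genes that fell held these letters. Aldoc has 1 match, which starts 50 bases before the start of transcription, and Pfkfb3 has 1 at 60 bases. Car9 has 1 at 18 bases and Egln3 1 at 229 bases, while the 250 bases before Eno2, the gene that rose most, hold 0. Of the 33 measured genes 31 had an entry (not Slc2a3 and Ndrg1), and 25 of these (80.6%) held a match, namely 10 of 13 called higher, 3 of 3 called lower and 12 of 15 not called. Of all genes with such a stretch in the table, 38.6% held a match, as did 55.9% among the tested genes outside the dimmest 40%. The letters overlap with CACGTG, the site of other factors, which 4 of the 31 members' stretches (12.9%) held, against 6.04% of all stretches and 8.47% of those of tested genes outside the dimmest 40%. A match is a description of the sequence and not of binding.

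Other genes of the pathway were read from lists fixed for this work, of which 96 genes were measured, 16 called higher and 12 lower (29.2%). Over all genes tested 20.8% were called, 10.7% higher and 10.0% lower. Among genes outside the dimmest 40%, where all but 12 of the 96 lie, 30.4% were called, which is close to the share in these lists. Of 24 other glycolysis genes, which include tissue-restricted isoforms, further sugar and lactate carriers and enzymes of side steps, 1 was called higher and 1 lower, with a median of -0.06. These were Pgm1, a phosphoglucomutase (0.31 ± 0.07 SE), and Slc2a6, a sugar carrier of leukocytes (-0.36 ± 0.06 SE). Around pyruvate and the branches of the pathway, 5 of 23 were higher and 2 lower, with a median of 0.09.

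In that second list, Gpd2, the mitochondrial glycerol phosphate dehydrogenase that passes cytosolic electrons to the respiratory chain, read 7.42, 7.49 and 7.38 in wild type and 8.28, 8.23 and 8.27 in St2-/- (difference 0.83 ± 0.06 SE, adjusted p = 1.46e-05). Tkt, the transketolase of the pentose phosphate pathway, rose by 0.48 ± 0.07 (SE) and Mpc1, a subunit of the mitochondrial pyruvate carrier, by 0.23 ± 0.06 (SE). Pcx, which turns pyruvate into oxaloacetate, fell by 0.57 on the log2 scale (SE 0.09), and Pdp1, the phosphatase that opposes Pdk1, fell by 0.35 (SE 0.07). Pdk1 and Pdp1 thus were both called lower, and the other kinases of the complex, Pdk2, Pdk3 and Pdk4, were not called (-0.03 ± 0.07, 0.07 ± 0.09 and -0.11 ± 0.07 SE).

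Among 12 other oxygen-sensing genes 1 was higher and 1 lower. Epas1, the paralogue of Hif1a that also pairs with Arnt, read 7.65, 7.77 and 7.84 in wild type and 5.90, 5.72 and 5.81 in St2-/-. It was 3.85-fold lower, with groups far apart (difference -1.94 ± 0.08 SE, adjusted p = 2.32e-07). Vhl, the ubiquitin ligase subunit that binds hydroxylated HIF, rose by 0.37 ± 0.07 (SE, adjusted p = 0.00575), and Arnt differed by 0.12 ± 0.06 (SE, adjusted p = 0.218). Epas1 is also abundant in endothelium: of 10 endothelial markers 7 were lower and 2 higher, with mean log2 levels of 5.97 to 6.11 over the wild type and 5.72 to 5.74 over the St2-/- arrays, and their part in the result was not tested.

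Of 37 other known hypoxia targets 9 were higher and 8 lower, with a median of 0.05. The called genes with the smallest p were Arg1, Nos2, Cxcr4, Plod2, Vegfa and Angptl4. Arg1, the arginase, fell by 3.17 on the log2 scale (SE 0.06), Nos2, which makes nitric oxide from the same amino acid, rose by 1.38 ± 0.08 (SE), and both are also known as genes of macrophage activation states. The chemokine receptor gene Cxcr4 rose by 0.89 ± 0.06 (SE) and Vegfa, the endothelial growth factor gene, by 0.60 ± 0.06 (SE). Plod2, a collagen lysyl hydroxylase, differed by -0.94 ± 0.09 (SE) and Angptl4, which inhibits lipoprotein lipase, by -0.70 ± 0.07 (SE), and both were called lower.

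**Figure D4:**
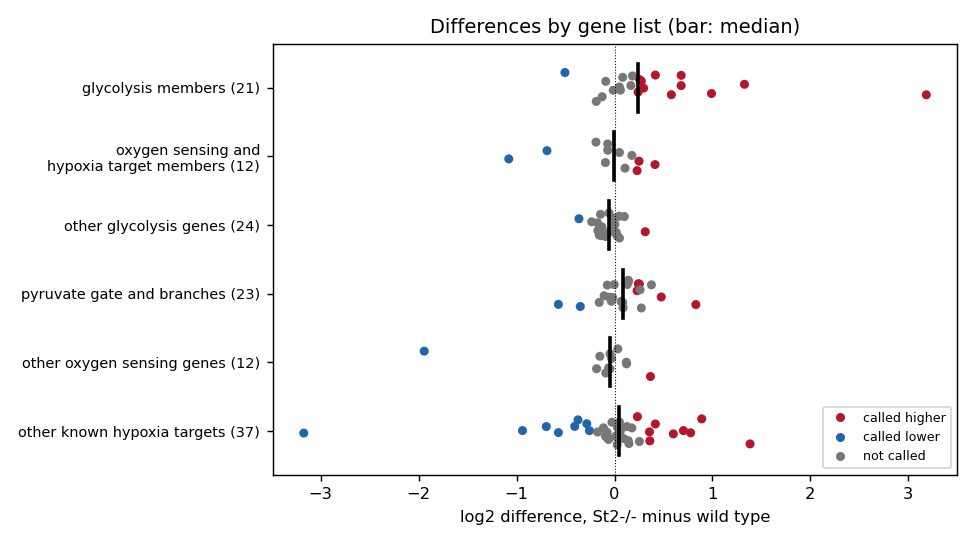
Log2 difference of each gene (x axis, St2-/- minus wild type) in the 2 sets of members and the 4 other lists (y axis, number of measured genes in brackets), with the median of each list as a black bar. The median lies at 0.24 for the glycolysis members and within 0.1 of 0 for the other lists, and Arg1 (-3.17), Epas1 (-1.94) and Eno2 (3.18) lie farthest out.

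Markers of other cells and of division also moved between the groups. Over all genes tested, 10.7% were called higher and 10.0% lower. Of 13 cell cycle genes 9 were higher and 1 lower, with mean log2 levels of 8.68 to 8.69 over the wild type and 8.94 to 8.98 over the St2-/- arrays. Of 12 T and NK cell markers 7 were higher and 0 lower (4.67 to 4.77 against 5.24 to 5.28), and of 11 dendritic cell markers 3 were higher and 3 lower (5.69 to 5.79 against 6.24 to 6.31). The median difference of these 11 dendritic cell markers was -0.01, and 7 of them differed by less than 0, so the higher mean level does not describe most of the list. Fibroblast markers had 6 lower and 1 higher of 10 (7.24 to 7.28 against 6.16 to 6.23) and neutrophil markers 4 lower and 1 higher of 11 (5.29 to 5.38 against 4.83 to 4.89). Of 4 erythroid markers 1 was lower. Their part in the changes of glycolysis and hypoxia genes was not tested. Of 12 epithelial and tumour markers 1 was called lower, and their mean level was 5.42 to 5.55 over the wild type and 5.41 to 5.44 over the St2-/- arrays.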

How the data were processed

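Each of the 6 arrays gave 1 column of values. The deposited log2 values were made by the authors with RMA, per the submitters' processing notes. For its version, annotation and build, the sources used here give nothing, and log2 was taken from the range of the values. Because arrays were quantile-normalized, a change common to most genes would be hidden. Of 35556 probe sets, the platform annotation paired 21789 with 1 gene symbol. The brightest of these over the 6 arrays stood for each gene, which left 19938 genes. All 33 measured members matched the reference gene table (GRCm38.p6), with 0 symbols changed.

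Groups were compared by limma 3.58.1 in R 4.3.3 (lmFit, eBayes, two-sided, Benjamini-Hochberg over all genes). Isoform pairs were compared by exact permutation tests. The members, gene lists, pairs and alternatives were chosen with earlier results of these data known, so they are not independent support for a direction. All members are accounted for, and array values are given at least for members called with a log2 difference of at least 0.5 and for those in a pair. From each pathway list up to 6 called genes with the smallest p were named, and further uncalled ones only beside a member.

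On simulated data of 19938 genes, of which 200 were changed in each draw, limma recovered 5.1% of changes of 0.25 on the log2 scale. It recovered 64.3% of changes of 0.5 and 95.4% of 1, and 3.5% of calls were false. In the real data 4140 genes were called, and the adjusted threshold loosens as more genes change. The simulated shares therefore do not carry over to the real data. Whether the replicate numbers pair the samples is not said in the labels, and the samples were fitted as unpaired. The correlations of deviations given with the alternatives cannot decide, with 3 arrays per group, whether the samples are paired. Members were also fitted under 16 other settings each.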

Additional observations from a re-analysis of the deposited data

How the results depend on the processing

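Of the 17 called members, 12 were called under all 16 alternatives and 5 (Slc2a3, Pkm, Ldha, Hif1a and Kdm3a) lost the call under at least 1 of them. Of the 16 others, 7 were called under at least 1. No called member changed direction. Uncalled members did: Pgam1, Egln1 and Mxi1 turned to 0.077, 0.020 and 0.020 after centring on the array median, Hk1 and Pfkl to -0.026 and -0.044 after cyclic loess, and Pgam1 to 0.018 without St2-/- replicate 2, within a range of -0.042 to 0.018 on leaving out 1 array. Centring each array on its median gave 3686 higher and 1294 lower calls over all genes, 25 higher calls in the pathway lists (16 as deposited) and a median member difference of 0.26. Cyclic loess gave 6 members lower and a median member difference of 0.081. A plain two-sample test called 2703 genes, 1222 of them lower. Without 1 array, 9 to 12 members were higher, 3 were lower, and the median difference was 0.13 to 0.20. Higher calls over all genes were then 1466 to 1894, against 2142 with all 6 arrays. The cause of these shifts was not tested. Reading Hk1 from its other probe set, chosen after seeing the data, left 14 members higher and 3 lower.

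With the replicate number as a block, 12 members were higher and 3 lower. Ldha and Hif1a lost their calls (limma adjusted p = 0.0535 and 0.0718). Deviations of same-numbered arrays correlated at 0.012, -0.012 and -0.048 over genes, and not every array correlated best with its own number. With 3 arrays per group these values cannot decide whether the samples are paired. Signal over background is not given in the deposited values, so how far it limits dim genes was not analysed here.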

Other observations

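The genome neighbours of 4 members with large differences (Eno2, Aldoc, Pfkfb3 and Car9) were read after their values had been seen, from the gene order in the RefSeq table. Over all genes tested, 10.7% were called higher and 10.0% lower, and whether a locus differs from that background was not tested. Of the 10 tested genes on either side of Eno2 on chromosome 6, 5 were called higher and 3 lower, with a median difference of 0.03. Those higher were Cd4, the T helper co-receptor (2.19 ± 0.09 SE, 9 tested genes away), Gpr162, an orphan receptor gene (0.97 ± 0.11 SE, 8 away), Tpi1, itself a glycolysis gene (0.30 ± 0.06 SE, 3 away), Ptpn6, a phosphatase of blood cells (0.29 ± 0.06 SE) and Cdca3, a cell division gene (0.25 ± 0.08 SE). The genes directly beside Eno2 did not rise with it: Atn1 was called lower (-0.25 ± 0.07 SE), and Lrrc23 was not called (-0.15 ± 0.08 SE).

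Pfkfb3 lies on chromosome 2, with 5 of its 20 nearest tested genes called higher and 0 lower. The largest of these differences was that of Il2ra, which encodes the CD25 subunit of an interleukin receptor (3.56 ± 0.07 SE, 3 tested genes away), followed by the integrin gene Itga8 (1.05 ± 0.10 SE), Rbm17 (0.43 ± 0.07 SE), Il15ra (0.28 ± 0.07 SE) and Atp5c1 (0.26 ± 0.07 SE). The median of the 20 was 0.04. Around Aldoc on chromosome 11, 3 of 20 were higher and 2 lower, and around Car9 on chromosome 4, 3 were higher and 4 lower.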
